A study of Mus musculus with 4 samples.

Results

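Cytosolic ribosomal protein genes encode the protein part of the ribosomes that translate nuclear messages in the cytoplasm, and they were followed here in pressure-loaded mouse hearts. They were chosen by name: probe sets with a single gene symbol that begins with Rpl or Rps, without the S6 kinase genes, Rps19bp genes and pseudogene names. The probe set with the highest mean log2 intensity stood for each gene. This gave 48 genes of the 12393 genes with a probe set of their own, namely 22 of the large subunit, 20 of the small subunit and 6 paralogs, which are extra copies of a ribosomal protein gene with a sequence of their own. The mouse RefSeq table (GRCm38.p6) holds 88 protein-coding genes with names of this form, of which 47 are among the 48. RefSeq lists the other member, Rps4l, as a transcribed pseudogene. The other 41 genes have no probe set with a single symbol here. A further 102 probe sets list a ribosomal protein symbol together with other symbols and are described apart.

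Total RNA of cardiac muscle, given as left ventricle for the IL-18 null pools, was measured on 4 arrays with biotin label, 1 per group. The groups were IL-18 null mice after transaortic constriction (a band that narrows the aorta and overloads the left ventricle), IL-18 null mice after sham surgery, wild-type mice after constriction, and wild-type mice after sham surgery. The IL-18 null banded pool, on a C57BL/6 background, held 6 mice at 1 week of banding, and the IL-18 null sham pool held 5 mice. For wild type the sources used here give neither strain, pool size nor time, beyond 5 to 6 animals per group for the series. The series addresses what the cytokine IL-18 does to cardiac gene expression under such a load. Each group has a single pooled array, so values are given without error, replicate check or p-value. Mouse-to-mouse spread is not measured.

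A ribosome joins a large subunit, which forms peptide bonds, to a small subunit, which decodes the message. Ribosomal proteins are made in matched amounts, and a growing heart muscle cell adds ribosomes to enlarge its protein content. Their messages begin with a pyrimidine tract, the 5′ terminal oligopyrimidine (TOP) motif, through which growth signals from mTOR control translation more than message level. The arrays measure message level alone.

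Values are log2 intensities, and values under a floor of 64 intensity units (log2 6) were set to 64 before differences were taken. A gene counted as measured when it reached the floor on at least 1 array. All differences are log2 differences, and 1 on this scale is 2-fold. The labelled tissue was matched by its markers: all 12 cardiomyocyte markers were above the floor on every array, with medians of 14.36, 14.41, 14.53 and 14.03 in IL-18 null banded, IL-18 null sham, wild-type banded and wild-type sham. Il18 lay below the floor on every array (highest 3.19), so it could not check the genotype labels.

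The wild-type sham array stood apart. Over 5158 measured genes it correlated with the other arrays at 0.774 to 0.871 (Pearson's r across genes), where the other pairs lay at 0.927 to 0.952. The 3′ to 5′ controls did not set that array apart in one way. For Gapdh the 3′ minus middle value was 1.66 in IL-18 null banded, 2.73 in IL-18 null sham, -0.16 in wild-type banded and 4.61 in wild-type sham. The 3′ minus 5′ value of Gapdh was 4.36, 5.13, 0.21 and 4.96 in that order. For Actb, the other control, the 3′ minus middle value was 4.57, 4.69, 2.01 and 4.88, and the 3′ minus 5′ value was 2.92, 3.04, 1.92 and 5.81. Wild-type banded had the smallest of each of these contrasts, and the middle and 5′ probe sets of Actb were below the floor in wild-type sham. The part of these differences in the results below was not tested. Banding in IL-18 null and the genotype comparison of banded hearts do not use this array. Banding in wild type and the genotype comparison of sham hearts cannot be made without it. In bulk tissue, fewer cells of a type and less RNA per cell cannot be told apart.

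Of the 48 genes, 43 were measured and 41 were above the floor on all 4 arrays. Rpl12, Rpl14, Rps25, Rps27 and the paralog Rpl39l stayed below the floor on every array, and each has 1 probe set. Such a reading does not show that a gene is not expressed. For Rps20, a probe set read 2.51 in IL-18 null banded where another read 13.54. The measured members were among the brightest genes: their median level was 12.79 in IL-18 null banded, 12.55 in IL-18 null sham, 12.72 in wild-type banded and 12.04 in wild-type sham. The medians of all measured genes were 8.44, 8.29, 8.40 and 8.15 in the same order. The median member ranked at percentile 98.7, 98.4, 98.6 and 97.8 among the 12393 genes of each array. Levels of different genes come from probe sets of different affinity and are not compared as amounts.

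**Figure D1:**
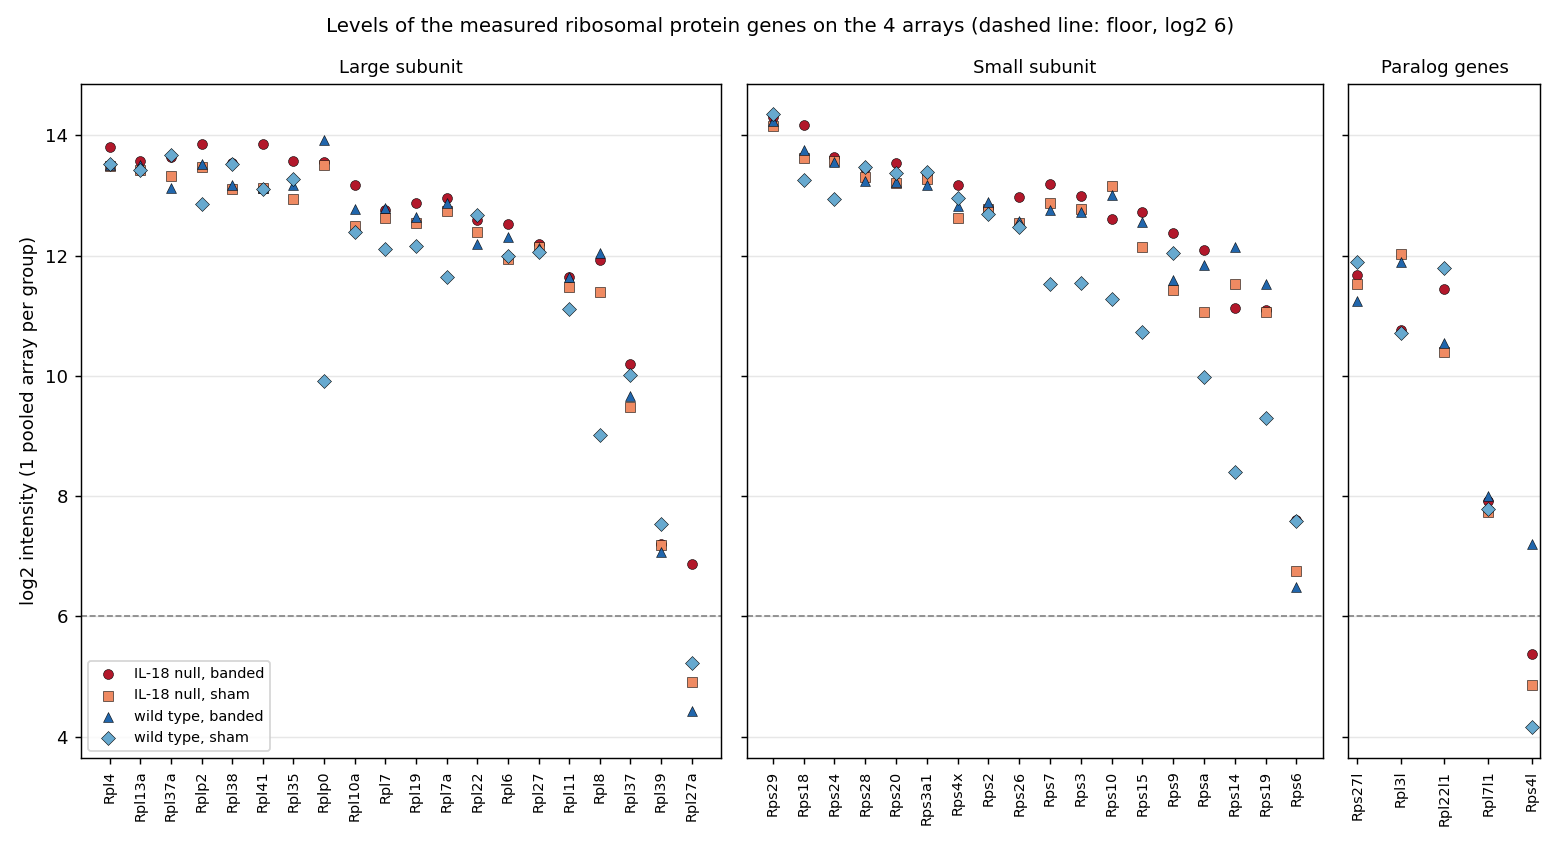
Log2 intensity (vertical axis) of the 43 measured ribosomal protein genes, by subunit and sorted by mean level, with 1 symbol per pooled array and the floor of log2 6 as a dashed line. Most genes have 4 symbols close together, while for Rplp0, Rpl8, Rps14 and Rps19 the wild-type sham symbol lies far below the others.

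The summed intensity of the 48 probe sets was 5.38% of that of all 12393 genes in IL-18 null banded, 4.65% in IL-18 null sham, 4.71% in wild-type banded and 4.29% in wild-type sham. The highest and lowest counts that follow were not made for all genes, so nothing particular to the members is read from them. The IL-18 null banded array had the highest value of the 4 for 25 of the 43 measured members. Wild-type sham had the lowest for 22, IL-18 null sham for 13, wild-type banded for 7 and IL-18 null banded for 1. Floored values were used, so ties at the floor were assigned by array order alone. The 1 of IL-18 null banded is such a tie, Rps4l. Before flooring it read 5.38 there, 4.86 in IL-18 null sham and 4.16 in wild-type sham. Rpl27a, counted for IL-18 null sham, was also a tie at the floor.

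In IL-18 null hearts most ribosomal protein genes read slightly higher after banding. Of 42 measured members 39 had a higher value in the banded than in the sham array, against 61.4% of all 4827 genes, and the median difference was 0.32 against 0.08 for all genes. All 20 measured large-subunit members were above 0, from 0.02 to 0.88, where the highest, Rpl27a, is a bound since its sham value was below the floor. Of the 18 small-subunit members 16 were above 0, with a median of 0.27. The size was modest: past 2-fold, 2 members were higher and 1 was lower, where 6.98% and 2.53% of all genes were. At 1.5-fold, 11 were higher and 1 lower, where 16.7% and 7.83% of all genes were.

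The sign of this shift held under each rescaling tried, with medians from 0.21 after cyclic loess to 0.32, but fewer members shared it: 33 of 42 members were above 0 after centring on all genes or quantile normalization, and 32 after cyclic loess. Other genes of like brightness were centred at 0. Among the 28 members with a mean of at least log2 12, 27 were above 0 with a median of 0.32, while 132 of 261 other genes in that range were above 0 with a median of 0.00.

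Rpsa, which encodes a small-subunit protein also known as the laminin receptor precursor, read 12.10 in the IL-18 null banded array and 11.06 in the IL-18 null sham array, a difference of 1.04. Rpl22l1, the paralog of the large-subunit gene Rpl22, read 11.44 and 10.39, a difference of 1.05. Both are just past the 2-fold threshold, and after quantile normalization, cyclic loess or centring 0 members were at least 2-fold higher. Rps9, a small-subunit gene, followed at 0.95 (12.37 banded, 11.42 sham). Rps6, the small-subunit protein that S6 kinases phosphorylate, followed at 0.85 (7.60 and 6.75). Its probe set read from 6.49 to 7.60 over the 4 arrays, near the floor, and its other probe set stayed below the floor.

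Among abundant large-subunit members, Rpl41, the smallest ribosomal protein, read 13.85 in banded and 13.12 in sham IL-18 null (0.73). Rpl10a read 13.18 and 12.49 (0.69). Rpl38, which in mice is needed for translation of a subset of Hox messages, read 13.54 and 13.11 (0.42). These values are each under 2-fold. Rplp0, which anchors the stalk that recruits elongation factors, read 13.55 and 13.51, and its stalk partner Rplp2 read 13.85 and 13.48. The core genes Rps2 (12.79 and 12.78) and Rpl27 (12.19 and 12.14) were nearly level by the probe set used. The other measured probe sets of Rpl27 gave 0.92 and 0.41, so Rpl27 was level by the used one alone.

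Against this trend, 3 members read lower with banding in IL-18 null by the probe set used. Rpl3l, the muscle paralog described below, was lower by 2-fold or more (10.77 banded, 12.02 sham). Rps10 read 12.61 and 13.15 (-0.54), and Rps14 read 11.13 and 11.52 (-0.39). Their other probe sets did not all share this: those of Rps10 ran from -0.65 to 0.27, and the other one of Rps14 gave -0.03.

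Markers of other cell types were read on the same arrays. Of 10 macrophage markers 9 were measured, of which 6 were at least 2-fold higher and 0 lower, and the summed intensity was 10243.5 in banded and 3582.4 in sham. C1qa was below the floor on both arrays. Of 10 fibroblast markers 9 were measured and 6 were at least 2-fold higher, with sums of 38924.5 and 14064.5. Tcf21 was below the floor on every array. Of the 12 cardiomyocyte markers 0 passed 2-fold, with sums of 262294.6 and 268268.3. Of 10 endothelial markers 9 were measured, 0 passed 2-fold and 6 were below 0, with a median of -0.12 and sums of 21364.2 and 21384.5. In wild type the sums were 6069.4 in banded and 3246.2 in sham for macrophage markers, 26130.8 and 10826.7 for fibroblast markers, 22840.8 and 22037.6 for endothelial markers, and 289352.1 and 206952.3 for cardiomyocyte markers. By counts in wild type, 5 of 9 macrophage and 6 of 9 fibroblast markers were at least 2-fold higher. So were 4 of 10 endothelial and 2 of 12 cardiomyocyte markers, and 0 of any type were lower. Bounds make up 3 of the higher macrophage and 2 of the higher endothelial markers. Yet 4 macrophage markers were below 0, and the endothelial median was 0.68. Of all genes 21.7% were higher and 12.8% lower in wild type. With banding in IL-18 null these shares were 6.98% and 2.53%. The part of these cells in the ribosomal protein values was not tested.

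**Figure D2:**
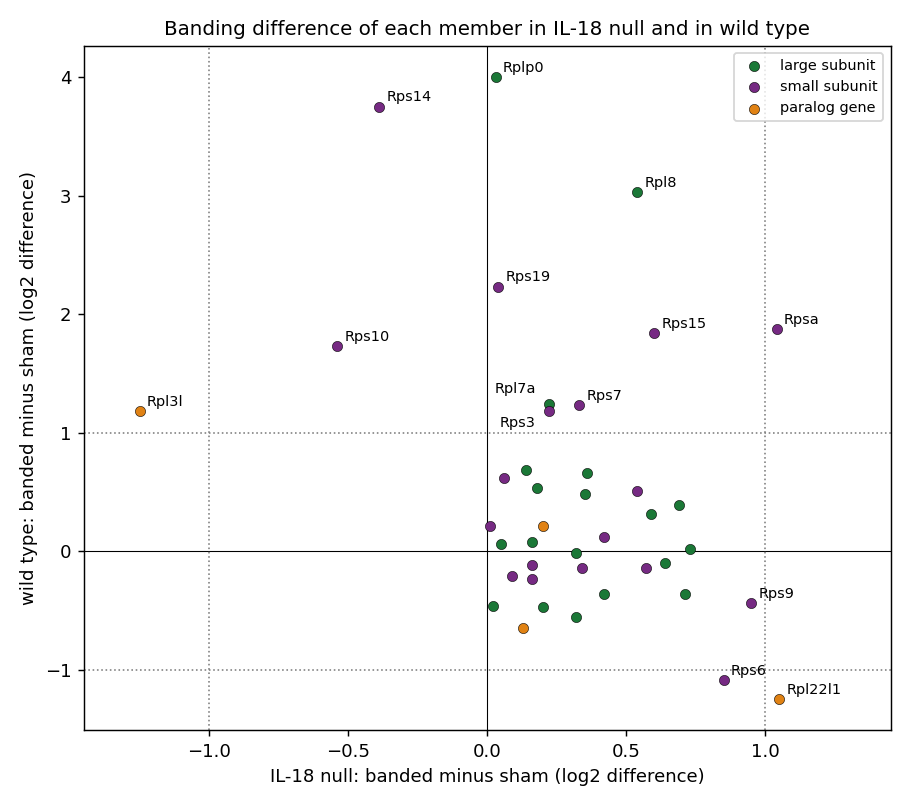
Each point is one of the 41 ribosomal protein genes measured in both comparisons, placed by its banded minus sham log2 difference in IL-18 null (horizontal) and in wild type (vertical), with dotted lines at 2-fold. All but Rpl3l, Rps10 and Rps14 lie right of 0, and the horizontal axis ends near 2-fold, while the vertical axis reaches 4.00 for Rplp0.

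In wild type the members differed more widely among themselves. Past 2-fold, 12 of the 42 measured were higher in banded and 2 lower, where 21.7% and 12.8% of all 5040 genes were. At 1.5-fold these were 15 and 3, with 29.0% and 27.3% of all genes, and 26 were above 0 (45.7% of all genes). The median was 0.21 against -0.08 for all genes, and it was -0.03 after quantile normalization, which took the median of all genes to -0.42. Cyclic loess gave 0.37 for members and 0.10 for all genes. The values spanned -1.25 to 4.00, against -1.25 to 1.05 in IL-18 null. The large-subunit median was 0.08 with 3 of 19 at least 2-fold higher, and the small-subunit median was 0.36 with 7 of 18 higher.

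The largest differences were those of genes with a low value on the wild-type sham array. Rplp0 read 13.55 in IL-18 null banded, 13.51 in IL-18 null sham, 13.92 in wild-type banded and 9.92 in wild-type sham. Rps14, whose human counterpart is lost in a deletion form of myelodysplastic anaemia, read 11.13, 11.52, 12.15 and 8.41 in the same order. Rpl8, a protein close to the peptide-bond-forming centre, read 11.93, 11.39, 12.05 and 9.02. In each of these genes 3 arrays lie within 1.03 and the wild-type sham array stands below all of them by 2.36 or more.

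Rps19, the gene most often mutated in human Diamond-Blackfan anaemia, read 11.10, 11.06, 11.53 and 9.30 over IL-18 null banded, IL-18 null sham, wild-type banded and wild-type sham. Rps15, whose tail reaches the decoding site, read 12.73, 12.14, 12.56 and 10.73. Rpsa read 12.10, 11.06, 11.85 and 9.98. Without wild-type sham, the arrays lie within 0.47 for Rps19, 0.60 for Rps15 and 1.04 for Rpsa. In each of these genes both banded arrays lie above their sham arrays, in IL-18 null by 0.04, 0.60 and 1.04 in the same order.

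The wild-type banding differences were 4.00 for Rplp0, 3.75 for Rps14, 3.03 for Rpl8, 2.23 for Rps19, 1.87 for Rpsa and 1.84 for Rps15. Rps10 (1.73), Rpl7a (1.24), Rps7 (1.23), Rps3, which lines the message entry channel (1.18), and the paralog Rpl3l (1.18) completed the members measured on both arrays that were at least 2-fold higher. The paralog Rps4l was higher by at least 1.21, a bound, because its wild-type sham value lay below the floor. The 2 lower members were Rpl22l1 (-1.25) and Rps6 (-1.09).

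In 10 members the wild-type sham array was lower than each of the other 3 arrays by at least 1: Rplp0, Rps14, Rpl8, Rps19, Rps15, Rps10, Rps7, Rps3, Rpl7a and Rpsa. Of all 5158 measured genes 12.2% showed this, and 10 of 43 members did; the difference in share was not tested. No member was lowest by that margin on any other array. Over the other 3 arrays, 37 of the 43 members stayed within a range under 1, and the median range was 0.42.

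Other members were high or level on the same wild-type sham array by the probe set used. For each gene named next, that probe set has a name ending in _x_at, a class whose probes can also match other transcripts. Rps29 and Rpl38 have no other class of probe set here. Without _x_at and _s_at probe sets, 14 of 34 members were at least 2-fold higher with wild-type banding. The median was 0.52, against -0.01 for all genes in this setting. The share of all genes at least 2-fold higher in this setting was not computed, so the count has no background. Rps29, the brightest member, read 14.30, 14.15, 14.23 and 14.35 over IL-18 null banded, IL-18 null sham, wild-type banded and wild-type sham. Rpl37a read 13.64, 13.32, 13.13 and 13.68, and Rpl38 read 13.54, 13.11, 13.17 and 13.53. Rpl13a, which in human cells also silences interferon-induced messages, read 13.58, 13.42, 13.50 and 13.42. For a pair of these genes another probe set was low there: one of Rpl37a read 12.67, 12.59, 13.12 and 10.73, and one of Rpl13a read 11.96, 11.60, 11.98 and 9.63, in the same order.

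**Figure D3:**
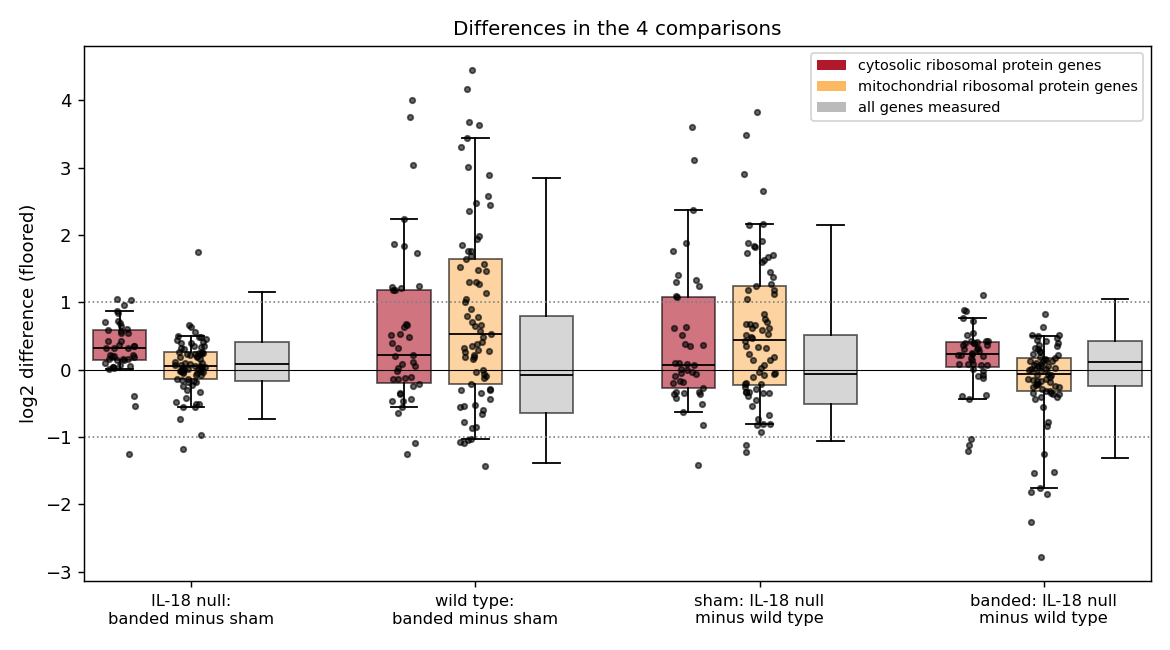
Log2 differences of cytosolic ribosomal protein genes (red), mitochondrial ribosomal protein genes (orange) and all measured genes (grey) in the 4 comparisons; boxes span the quartiles with the median as a line, whiskers the 5th to 95th percentile, and dots are single genes. The red box is narrow and above 0 for IL-18 null banding, and wide in both comparisons that subtract the wild-type sham array. The grey box is widest in the same comparisons.

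Different probe sets of the same gene gave different answers in wild type. Of the members 19 had at least 2 measured probe sets. Their differences for banding in IL-18 null spanned 0.28 at the median and 1.11 at most, and in 1 gene the span reached 1. For banding in wild type the span was 0.77 at the median and 4.18 at most, and it reached 1 in 8 genes.

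Rps9 was the widest: the probe set used gave -0.44 in wild type (11.60 banded, 12.04 sham), while another gave 3.74 (11.90 and 8.17). In IL-18 null the same probe sets gave 0.95 and 0.29. For Rpl37a the used probe set gave -0.56 and another 2.39 in wild type, against 0.32 and 0.08 in IL-18 null. For Rps18 the span ran from -0.12 to 2.62 in wild type, and for Rpl13a from -0.37 to 2.35. Rps10 had 5 measured probe sets, from -0.31 to 3.54, with 1.73 for the one used. For these genes the wild-type difference turned on which probe set was read. Rps14 gave 3.75 and 6.40 and Rps15 gave 1.84 and 2.50, the same direction on each of their probe sets. The part of the 3′ to 5′ contrasts given above, smallest in wild-type banded, in this spread was not tested.

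Probe sets that list a ribosomal protein symbol with others were read apart, since their signal can come from several genes. Of 102 such probe sets 84 were measured. With banding in IL-18 null 81 of 84 were above 0, with a median of 0.41, and past 2-fold 2 were higher and 0 lower, beside 61.4%, 6.98% and 2.53% of all genes. With banding in wild type 32 of 84 were above 0, with a median of -0.12, and past 2-fold 14 were higher and 4 lower, beside 45.7%, 21.7% and 12.8% of all genes.

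**Figure D4:**
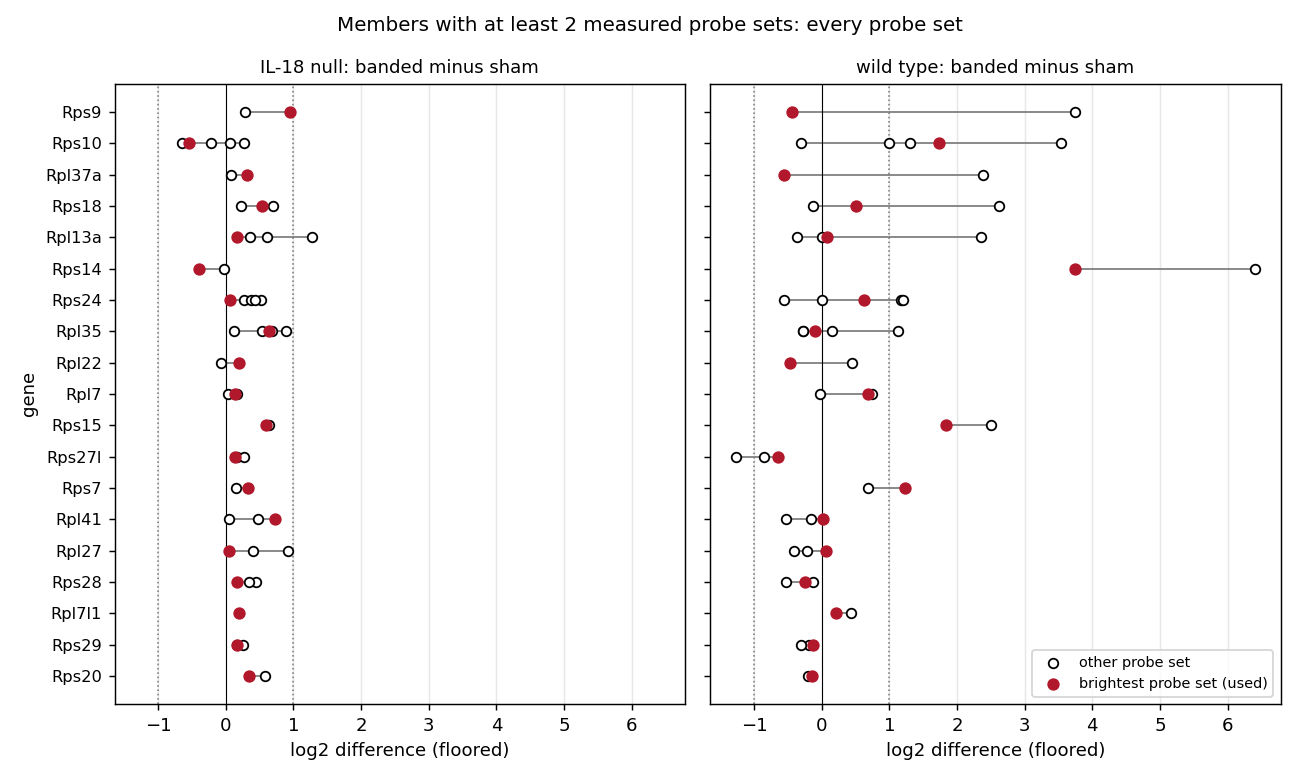
Banded minus sham log2 difference of every measured probe set of the 19 genes that have at least 2, in IL-18 null (left) and wild type (right); the filled symbol is the brightest probe set and dotted lines mark 2-fold. Symbols of a gene lie close together in IL-18 null and up to 4.18 apart in wild type.

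Sham-operated IL-18 null hearts were set against sham-operated wild type. Both this and wild-type banding subtract one and the same array, so they are not independent. Past 2-fold, 11 of 41 measured members were higher in IL-18 null and 1 was lower, where 16.3% and 6.29% of all 4851 genes were. At 1.5-fold these were 13 and 3, with 23.7% and 21.5% of all genes, and 22 were above 0 (43.9% of all genes). The median was 0.07 against -0.07 for all genes; after quantile normalization these were -0.03 and -0.29. The largest were Rplp0 (3.60), Rps14 (3.11), Rpl8 (2.36), Rps10 (1.88), Rps19 (1.76) and Rps15 (1.41). Rps7 (1.34), Rpl3l (1.30), Rps3 (1.23), Rpl7a (1.09) and Rpsa (1.08) followed, and Rpl22l1 was the lower member (-1.41). All but Rpl3l and Rpl22l1 are genes for which wild-type sham lay at least 1 below every other array.

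Among banded hearts, where the wild-type sham array plays no part, few members differed between IL-18 null and wild type. Past 2-fold, 1 of 43 measured members was higher in IL-18 null and 3 were lower, where 5.7% and 7.74% of all 4947 genes were. At 1.5-fold these were 5 and 3, with 17.0% and 13.9% of all genes. A majority, 33 of 43, were above 0, against 60.1% of all genes, with a median of 0.23 against 0.11. After cyclic loess the median was 0.04, with that of all genes at -0.06. Rps6 was the higher member (7.60 in IL-18 null, 6.49 in wild type, a difference of 1.10). These values lie near the floor, and with a floor of log2 7 the count of higher members was 0. The lower ones were Rpl3l (10.77 and 11.90, -1.13), Rps14 (11.13 and 12.15, -1.03) and Rps4l, whose IL-18 null value was below the floor (-1.21, a bound). Rplp0, at 3.60 between the sham arrays, was at -0.37 between the banded arrays, and Rpl8 was at -0.13.

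A pair of paralogs differed in opposite directions with banding in the 2 genotypes; the difference between genotypes was not tested. Rpl3l encodes a form of the large-subunit protein Rpl3 that is made in heart and skeletal muscle, where it takes the place of Rpl3 in ribosomes. Its probe set, on chromosome 17, had intensities of 1749.1 in IL-18 null banded, 4156.1 in IL-18 null sham, 3821.3 in wild-type banded and 1688.1 in wild-type sham. It was low in IL-18 null banded and wild-type sham and high in the other arrays, so its banding difference was -1.25 in IL-18 null and 1.18 in wild type. Over the settings tried the IL-18 null difference ranged from -1.37 to -1.25 and the wild-type one from 0.87 to 1.32. Rpl3 itself has no probe set of its own here, so the balance of the pair was not read.

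Rpl22l1 had the opposite pattern. It had intensities of 2772.2 in IL-18 null banded, 1338.8 in IL-18 null sham, 1495.7 in wild-type banded and 3561.8 in wild-type sham. Its banding difference was 1.05 in IL-18 null and -1.25 in wild type. Its parent gene Rpl22, which in mouse cells represses Rpl22l1, read 12.60, 12.40, 12.20 and 12.67 on the log2 scale over the same arrays by the probe set used. Its other measured probe set read 9.53, 9.60, 9.49 and 9.04, with another order, so the direction of Rpl22 was not settled. At least 2-fold differences in opposite directions were found in 2.27% of the 4709 genes measured in both comparisons, and in Rpl3l and Rpl22l1 among the members.

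**Figure D5:**
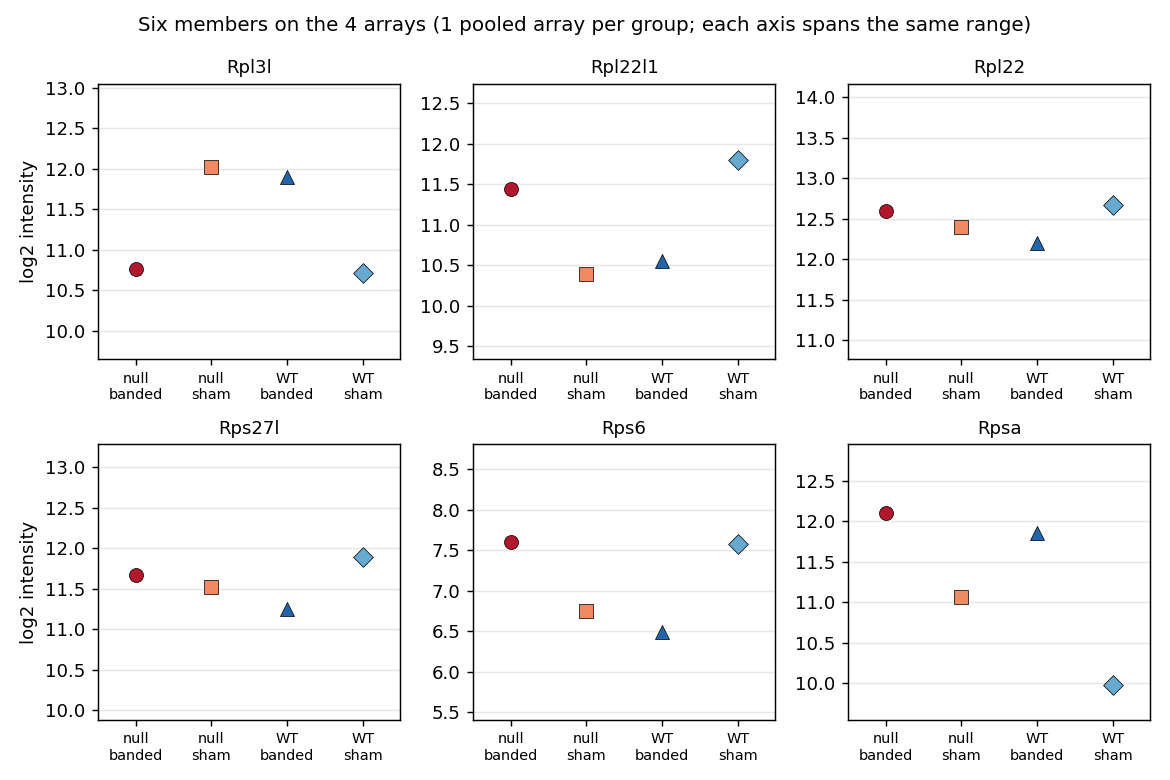
Log2 intensity of Rpl3l, Rpl22l1, Rpl22, Rps27l, Rps6 and Rpsa on the 4 pooled arrays, in panels that span the same range. Rpl3l is low, and Rpl22l1 and Rps6 are high, in IL-18 null banded and wild-type sham; Rpsa is high in both banded arrays.

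Of the other paralogs, Rps27l, a target of p53 in human cells, read 11.67 in IL-18 null banded, 11.53 in IL-18 null sham, 11.25 in wild-type banded and 11.89 in wild-type sham. Its other probe sets gave wild-type differences down to -1.26, against -0.65 for the used one. Its parent Rps27, read by 1 probe set, was below the floor on every array (highest 3.25), so its level was not read. Rpl7l1 read 7.92, 7.73, 8.01 and 7.79, within 0.28. Rps4l reached the floor in wild-type banded alone (7.21; 5.38, 4.86 and 4.16 in IL-18 null banded, IL-18 null sham and wild-type sham).

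The pattern of Rpl22l1, with IL-18 null banded and wild-type sham both above the other arrays, was found in 16 of 43 members, against 29.4% of 5158 genes. Its margin was 0.89 for Rpl22l1, 0.83 for Rps6, 0.44 for Rps9 and 0.36 for Rpl37 and Rpl38. The reverse, with both below the others, was found in Rpl3l, Rps10 and Rps14, against 14.9% of all genes, with margins of 1.13, 0.40 and 0.39. These shares lie near those of all genes or rest on few members, and nothing is read from them.

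As a difference of responses, banding in IL-18 null minus banding in wild type had a median of 0.08 over the 43 members and 0.16 over 5158 genes. The highest were Rpl22l1 (2.30), Rps6 (1.93, from values near the floor), Rps9 (1.39) and Rpl37 (1.06), with Rpl27a and Rpl37a level at 0.88. Rpl27a was above the floor on the IL-18 null banded array alone. The lowest were Rps14 (-4.14), Rplp0 (-3.97), Rpl8 (-2.49), Rpl3l (-2.43) and Rps10 (-2.27). In all 4 were above 1 and 9 below -1, where 20.4% and 21.0% of all genes were. The sign of the member median depends on the setting: it was 0.32 after quantile normalization, -0.08 after centring on all genes and -0.14 after cyclic loess.

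The start sites of these genes were read from RefSeq promoters (GRCm38.p6), which hold 42 of the 48 members. The members lie on 17 chromosomes. The 30 bases around the annotated start, with the longest pyrimidine run in capitals, are shown for genes on which the results turn, 5′ to 3′ on the strand of the gene. The first 4 hold a TOP-like run of at least 8 pyrimidines at or next to the start and the last 3 do not.
Rpl7a, chr2:26910792-26910821, plus strand: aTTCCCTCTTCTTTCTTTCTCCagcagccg
Rps10, chr17:27635230-27635259, minus strand: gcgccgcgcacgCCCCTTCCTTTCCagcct
Rps6, chr4:86857353-86857382, minus strand: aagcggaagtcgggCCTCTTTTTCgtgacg
Rpl22l1, chr3:28805493-28805522, plus strand: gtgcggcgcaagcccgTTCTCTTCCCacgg
Rplp0, chr5:115559452-115559481, plus strand: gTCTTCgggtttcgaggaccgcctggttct
Rpsa, chr9:120127751-120127780, plus strand: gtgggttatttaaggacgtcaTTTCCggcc
Rpl3l, chr17:24727811-24727840, plus strand: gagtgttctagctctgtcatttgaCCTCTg

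A run of at least 8 pyrimidines in this window was found in 18 of the 42 members (42.9%) and in 11.8% of all 27025 genes with an entry. The letters CGGAAG, the core that ETS-family factors such as GABP bind, were found on either strand from 250 bases before to 50 after the start in 69.0% of members and 17.2% of all genes. The letters AAGATGG, part of the YY1 motif, were found on either strand in 16.7% and 6.46%. Of the members at least 1 lower in wild-type sham than on every other array, 2 of the 8 with an entry held such a run, and 14 of the 29 other measured members did. These matches are letters, not binding sites, and an annotated start can lie some bases away from the true one.

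The upstream sequence of Rpl3l is shown because its banding differences ran opposite to those of most members in IL-18 null. Its start window holds no run of 8 pyrimidines and its promoter no CGGAAG. The same is true of members that read higher with banding in IL-18 null, such as Rpl10a (0.69) and Rps4x (0.57). A link between these letters and the banding differences was not tested. The 250 bases before its start, chr17:24727576-24727825 on the plus strand, hold 3 CANNTG matches, the E-box letters that MyoD-family and other helix-loop-helix factors bind, here in capitals. At least 1 such match was found in 21 of the 42 members and 66.1% of all genes, so it is common.
Rpl3l upstream: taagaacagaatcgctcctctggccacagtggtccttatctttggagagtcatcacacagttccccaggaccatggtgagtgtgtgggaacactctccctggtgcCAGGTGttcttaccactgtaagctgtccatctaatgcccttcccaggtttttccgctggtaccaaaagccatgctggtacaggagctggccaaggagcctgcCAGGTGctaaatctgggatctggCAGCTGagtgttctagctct

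Other TOP messages were listed for comparison: 19 genes of elongation factors, initiation factor subunits and others, all measured. With banding in IL-18 null 17 of 19 were above 0 with a median of 0.20 and 0 were past 2-fold. Of all genes 61.4% were above 0, and past 2-fold 6.98% were higher and 2.53% lower. Eef1b2, an elongation factor subunit, was at 0.85 and Gas5, a TOP host gene of small nucleolar RNAs, at 0.83. In wild type 5 were higher past 2-fold and 2 lower, where 21.7% and 12.8% of all genes were. The median was 0.25. Eef2, the translocation factor, read 11.47 in IL-18 null banded, 11.56 in IL-18 null sham, 12.47 in wild-type banded and 7.56 in wild-type sham. Eif3k read 10.49, 10.22, 10.86 and 6.22. Both genes were low in wild-type sham alone. Fau, which encodes the small-subunit protein Rps30 fused to a ubiquitin-like protein, read 11.93, 11.78, 12.02 and 10.41.

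Ribosome assembly factors had 27 of 42 listed genes on the array measured for banding in IL-18 null. Of these, 3 were at least 2-fold higher and 0 lower (6.98% and 2.53% of all genes), with a median of 0.12. The higher ones were Nhp2 (1.29), Nop56 (1.24), both parts of small nucleolar ribonucleoproteins that modify ribosomal RNA, and Nmd3 (1.23), the export adaptor of the large subunit. In wild type 4 were higher, 2 of them bounds, and 6 lower (median -0.22), where 21.7% and 12.8% of all genes were. Nmd3 (8.17 in IL-18 null banded, 6.95 in IL-18 null sham, 6.79 in wild-type banded and 8.39 in wild-type sham) was among the lower. Ncl, which encodes nucleolin, was at 2.99.

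Genes of ribosomal RNA transcription had 7 measured members in each banding comparison, with 1 at least 2-fold higher and 0 lower in each genotype. Shares of all genes were 6.98% and 2.53% in IL-18 null and 21.7% and 12.8% in wild type. The higher ones were Polr1e in IL-18 null (1.01) and Polr1d in wild type (1.51), both subunits that serve RNA polymerase I. Myc, a driver of ribosome production, was above the floor in IL-18 null banded alone (6.65; 3.09, 2.96 and 3.31 in IL-18 null sham, wild-type banded and wild-type sham). Of the regulators of TOP translation 0 of 11 passed 2-fold in IL-18 null, where Mtor was at 0.39 and Larp1, which binds the TOP motif, at 0.10. In wild type 3 of 10 were at least 2-fold higher, 1 of them a bound, and 0 lower, where 21.7% and 12.8% of all genes were. Akt1 was at 3.05 and Eif4ebp1, a repressor of cap-dependent translation, at 2.36.

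Mitochondrial ribosomal proteins, which are encoded in the nucleus but serve the separate ribosome of mitochondria, were set beside the cytosolic members. With banding in IL-18 null 44 of 73 were above 0 and their median was 0.05, against 39 of 42 and 0.32 for cytosolic members. Of all genes 61.4% were above 0. In wild type 29 of 73 were at least 2-fold higher and 5 lower, with a median of 0.53. Of the 29, 10 are bounds, and 21.7% of all genes were higher and 12.8% lower. Between the banded arrays 8 were lower past 2-fold in IL-18 null and 0 higher, where 7.74% and 5.7% of all genes were. The median there was -0.06 against 0.23 for cytosolic members. Translation initiation and elongation factors had 30 of 45 above 0 with banding in IL-18 null and a median of 0.14. These are counts on single arrays and were not tested.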

How the data were processed

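Cardiac RNA of 4 pooled groups was measured on 4 arrays. The deposited values are linear probe set intensities that the authors made with GCRMA, per the submitters' processing notes (version not given in the sources used here), and no scanner files were used. Intensities were turned to log2 with a floor of 64 units (log2 6), and differences were taken between arrays with Python 3.11.15, numpy 2.4.6 and pandas 2.3.3. Quantile and cyclic loess alternatives used limma 3.58.1 in R 4.3.3. Each gene took the single-symbol probe set with the highest mean log2 intensity, and was measured where at least 1 array of the comparison reached the floor. Of 22690 probe sets, 64 are controls, 20380 carry 1 symbol, 691 several and 1555 none, by the platform annotation. Counts use a 2-fold threshold (1.5-fold as an alternative), and none of these comparisons was tested, since each sets 1 array against 1; the number of arrays is what limits precision. The counting was tested on simulated data.

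Named members are all those past 2-fold in each comparison (the 10 largest per direction, with bounds and paralogs apart), the extremes of the response difference, the paralogs with their parents, and stalk, Rpsa, Rpl13a and Rps6 genes. Other members named, among them those that complete a count past 10, were chosen after their values were seen. The members and lists were chosen with earlier results of these data known.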

Additional observations from a re-analysis of the deposited data

Results flagged for a closer look

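Rpl3l and Rpl22l1 are set out because each was at least 2-fold different with banding in both genotypes, in opposite directions. Of the 4709 genes measured in both comparisons 2.27% did the same, and the share among members was not tested against it. The banding difference in IL-18 null minus that in wild type was -2.43 for Rpl3l (-1.25 in IL-18 null, 1.18 in wild type) and 2.30 for Rpl22l1 (1.05 in IL-18 null, -1.25 in wild type), on the log2 scale. Each genotype gives 1 pooled array per state, so the difference was not tested. Past 2-fold they did not hold under every rescaling: Rpl22l1 in IL-18 null was 0.94 after quantile normalization or cyclic loess and 0.97 after centring, and Rpl3l in wild type was 0.87 after quantile normalization. The wild-type differences rest on the wild-type sham array, which stood apart from the others. Between the banded arrays, which leave it out, Rpl3l was at -1.13 and Rpl22l1 at 0.89 in IL-18 null relative to wild type.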

How the results depend on the processing

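Of 125 alternative values of counts and medians 94 stayed close and 31 moved, with medians that turned sign among them, given below. Of 1472 alternative differences of single members 1430 stayed within 0.5 and 42 did not. Many of the 1472 could hardly move. A changed floor leaves members far above it as they were, centring shifts values by at most 0.11, and 25 of the 48 members have 1 probe set. The share that stayed is thus no measure of how firm the values are. For banding in IL-18 null, the 2 members at least 2-fold higher became 0 after quantile normalization, cyclic loess or centring, 1 with the mean of all probe sets and 11 at 1.5-fold, and the median of 0.32 became 0.21 after cyclic loess. For banding in wild type, the 12 higher became 7 after quantile normalization; the 2 lower became 1 with a floor of log2 7, cyclic loess or the mean of all probe sets; and the median of 0.21 became -0.03 after quantile normalization, 0.37 after cyclic loess, 0.39 with the mean of all probe sets and 0.52 without _x_at and _s_at probe sets. Between sham arrays, the 1 lower became 2 after quantile normalization and 3 at 1.5-fold, and the median of 0.07 became -0.03 after quantile normalization and 0.37 without those probe sets. Between banded arrays, the 1 higher became 2 with a floor of log2 5 or no floor, 0 with a floor of log2 7, cyclic loess, centring or the mean of all probe sets, and 5 at 1.5-fold; the 3 lower became 1 after quantile normalization; and the median of 0.23 became 0.04 after cyclic loess. The median response difference of 0.08 became 0.32 after quantile normalization, and -0.14 after cyclic loess or without those probe sets, and -0.08 after centring. Taking the probe set of the highest mean linear intensity was chosen after seeing the data. The cause of these shifts was not tested. No paired analysis was possible because each group has 1 array, and no replicate could be left out.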
